A study of Rattus norvegicus with 6 samples.

Results

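The machinery of endoplasmic reticulum (ER)-associated degradation (ERAD) was followed through 8 genes: Herpud1, Sel1l and Syvn1 of the ubiquitin ligase complex in the ER membrane, the lectins Os9 and Edem1, the retrotranslocation proteins Derl1 and Derl2, and the ATPase Vcp. Members were the probe sets whose platform annotation gave exactly 1 gene symbol equal to one of these names. This gave 14 probe sets, all bright enough to be tested, among 18625 tested probe sets, of which those with a single symbol stood for 9864 genes. The cells were UMR106-01, a rat osteosarcoma line with osteoblast properties. The 3 AEBSF cultures held 400 µM AEBSF together with 10% fetal bovine serum and beta-glycerol phosphate at 6.5 mM, which feeds mineral deposition; AEBSF is a serine protease inhibitor. The 3 mineralizing cultures held the same phosphate source and serum with no AEBSF. The treatments began 64 h after plating and lasted 12 h, to harvest at 76 h. Both groups were in mineralizing medium, so the comparison bears on the inhibitor and not on the phosphate source. Each culture gave 1 Affymetrix array of MAS5 signals, a scale in which every array is set to the same overall level.

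ERAD disposes of secretory proteins that fail to fold. Lectins such as Os9 and Edem1 read the trimmed sugars of a misfolded glycoprotein in the ER lumen and hand it to the adaptor Sel1l. Sel1l holds the client at Syvn1 (also called Hrd1), a ubiquitin ligase that spans the ER membrane and works with the derlins and Herpud1. On the cytosolic side the ATPase Vcp, with its cofactors Nploc4 and Ufd1, pulls the ubiquitinated chain out of the membrane and passes it to the proteasome. Osteoblasts send large amounts of collagen through the ER, and several ERAD genes are known targets of the unfolded protein response, in which Atf6 is cut by site-1 and site-2 protease and Xbp1 is spliced by Ern1.

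Of 10 listed osteoblast markers 8 were measured, and 7 of these lay above the signal filter. Runx2 and Sp7 were not analysed here. The summed signal of the 8 measured markers ranged over 24949 to 26152 in AEBSF cultures and 26683 to 28144 in mineralizing cultures. Most of that sum was Ibsp, with 17101 in AEBSF and 16520 in mineralizing cultures. The ranges did not overlap, and the 2 osteoblast markers that passed the test, Col1a1 and Col1a2, were both lower with AEBSF. Bglap lay below the signal filter (4.8 in AEBSF and 1.95 in mineralizing cultures). Markers of cartilage, macrophages and osteoclasts, fat, muscle and endothelium summed to at most 256 on any array for any of these types. Only Acan, Csf1r and Des among them were bright enough for the test, and none of these passed. For fat and endothelium 0 markers were tested, so the test says nothing about a change in those types. The 3'-to-5' signal ratio of the Gapdh control lay between 1.05 and 1.08 on AEBSF arrays and between 1.02 and 1.06 on mineralizing arrays, and that of beta-actin between 1.46 and 1.61 on AEBSF arrays and between 1.52 and 1.54 on mineralizing arrays.

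With AEBSF, 2 genes of the ligase complex and 1 lectin were lower and the ATPase was higher. In limma, with Benjamini-Hochberg adjustment over all tested probe sets and a threshold of 0.05, Herpud1, Sel1l and Os9 fell and Vcp rose. The other 4 genes, Syvn1, Edem1, Derl1 and Derl2, did not pass. Among all tested genes 9.22% fell and 7.09% rose, 16.3% in either direction. The median log2 fold change of the 8 genes was -0.28, against 0.00 for all tested genes. Of the 14 probe sets 4 fell and 1 rose, against 7.41% and 5.99% of all tested probe sets (13.4% in either direction), and 6 showed no overlap between the groups, against 32.7% of all tested probe sets. All cultures came from 1 cell line, and p-values measure only the spread between these cultures. In RNA from whole cultures, fewer cells of a type and less RNA per cell cannot be told apart.

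**Figure D1:**
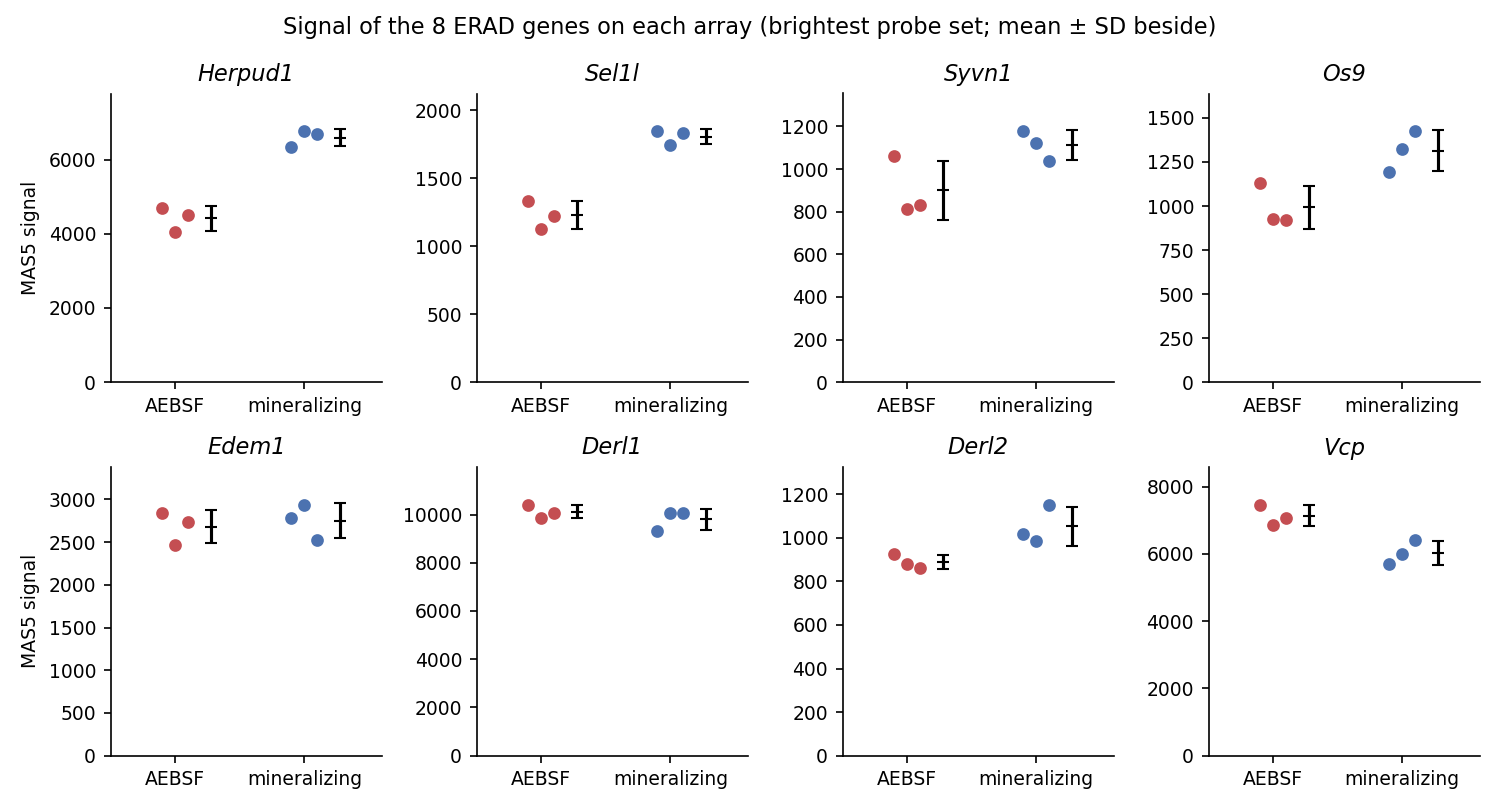
MAS5 signal of the brightest probe set of each of the 8 ERAD genes on each array, with AEBSF cultures in red on the left and mineralizing cultures in blue on the right; bars beside the points give the mean and SD of 3 cultures, and every axis starts at 0. The groups are apart for Herpud1, Sel1l, Os9, Derl2 and Vcp and overlap for Syvn1, Edem1 and Derl1.

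Herpud1 encodes a ubiquitin-like protein of the ER membrane that joins the derlins to the ligase and is strongly induced by ER stress. Its signals were 4703, 4037 and 4509 in AEBSF cultures, against 6331, 6765 and 6683 in mineralizing cultures. All AEBSF values lay under all mineralizing values, with a gap wider than the range of either group. The means were 4416 ± 342 in AEBSF and 6593 ± 231 in mineralizing cultures (SD, n = 3 each), a log2 fold change of -0.58 (SE 0.06, 95% interval -0.72 to -0.44, limma adjusted p = 0.000261). The call held in all 17 alternative settings, with log2 fold changes between -0.73 and -0.52.

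The region before the Herpud1 start is shown because Herpud1 had the largest change of the 8 and holds a motif of ER stress genes. It lies at chr19:10614708-10614957 on the minus strand of GRCr8, 250 bases in RefSeq's promoter table, in which 6 of the 8 members have an entry. Capitals mark the fixed letters of the ER stress response element II, ATTGG and CCACG with 1 base between, which spans bases 124 to 114 before the start.
Herpud1: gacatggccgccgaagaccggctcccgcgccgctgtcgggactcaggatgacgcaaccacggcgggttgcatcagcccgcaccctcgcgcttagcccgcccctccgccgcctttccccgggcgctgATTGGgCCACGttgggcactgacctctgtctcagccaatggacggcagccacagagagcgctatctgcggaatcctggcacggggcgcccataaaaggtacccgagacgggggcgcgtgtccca
The motif was looked for on both strands over 250 bases before to 50 after the start. It was held by 0.0508% of the 33469 promoters in that table. Herpud1 was already known as an ER stress gene, so its match to a motif of such genes is not independent evidence. The shares of all promoters given for the motifs were not matched for base content. G and C made up 68.8% of the Herpud1 region, against a median of 51.2% among all promoters. The longer ER stress response element, CCAAT and CCACG with 9 bases between, was in 0.0657% of all promoters and in none of the 6 members. The amino acid response element form TGATGNAAT was in 1.09% of all promoters and likewise in none of the 6. At shares this low, most sets of 6 promoters would hold neither motif. These matches describe letters in a window and were not tested for binding.

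Sel1l, the adaptor that joins client recognition to the ligase, moved by nearly the same amount. Its signals were 1336, 1126 and 1223 in AEBSF cultures, against 1846, 1742 and 1831 in mineralizing cultures. The groups did not overlap, and the mineralizing values were the tighter of the 2 sets. The log2 fold change was -0.56 (SE 0.07, limma adjusted p = 0.000674), a 1.47-fold fall, and it passed in all 17 alternative settings.

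Syvn1, the ubiquitin ligase itself, had signals of 1061, 811 and 830 in AEBSF cultures, against 1178, 1121 and 1038 in mineralizing cultures. The highest AEBSF value lay above the lowest mineralizing value, so the groups overlapped. The log2 fold change was -0.31 (SE 0.10) with limma adjusted p = 0.0583, just short of the threshold. The 95% interval ran from -0.53 to -0.10. Syvn1 passed without AEBSF culture 1 (log2 fold change -0.44, limma adjusted p = 0.00821) and with a filter at the 60th percentile (0.0471), and with arrays scaled to hybridization controls (adjusted p = 0.00973).

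Os9, a lectin that binds trimmed glycans and delivers clients to Sel1l, fell on its brighter probe set only. Its signals there were 1133, 924 and 918 in AEBSF cultures, against 1195, 1323 and 1425 in mineralizing cultures. The groups did not overlap, though AEBSF culture 1 came close to the lowest mineralizing culture. The log2 fold change was -0.41 (SE 0.09, limma adjusted p = 0.0152). Signals on the dimmer Os9 probe set were 351, 288 and 421 in AEBSF cultures and 349, 312 and 349 in mineralizing cultures, which overlapped widely (log2 fold change 0.05, 95% interval -0.25 to 0.35). The Os9 call was lost with the mean of both probe sets (log2 fold change -0.18, limma adjusted p = 0.221), with a constant variance prior (adjusted p = 0.0898) and without mineralizing culture 2 or 3 (adjusted p = 0.0514 and 0.0619).

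Edem1, which draws misfolded glycoproteins out of the folding cycle, had 3 probe sets, and none passed in limma. The brightest gave 2844, 2463 and 2738 in AEBSF cultures, against 2780, 2938 and 2529 in mineralizing cultures. The values interleaved, and its log2 fold change was -0.04 with a 95% interval of -0.19 to 0.12 (limma adjusted p = 0.788). The other Edem1 probe sets had log2 fold changes of -0.08 and -0.10. As a fold the interval of the brightest Edem1 probe set is 0.88 to 1.09.

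The derlins, which take part in moving clients out of the ER, gave different values. Derl1 signals on the brightest of 3 probe sets were 10409, 9871 and 10080 in AEBSF cultures, against 9310, 10062 and 10045 in mineralizing cultures. The groups overlapped, and the log2 fold change was 0.05 (95% interval -0.07 to 0.16). The other Derl1 probe sets gave -0.00 and 0.01, and all 3 Derl1 probe sets had overlapping groups. Derl2 signals on the brighter of 2 probe sets were 927, 878 and 861 in AEBSF cultures, against 1019, 986 and 1152 in mineralizing cultures. Those groups did not overlap, with a log2 fold change of -0.24 (SE 0.08) and limma adjusted p = 0.0567. The dimmer Derl2 probe set passed, with 462, 412 and 451 in AEBSF cultures and 543, 583 and 532 in mineralizing cultures (log2 fold change -0.32, SE 0.09, limma adjusted p = 0.035). Derl2 also passed with the mean of its probe sets (log2 fold change -0.28, limma adjusted p = 0.0202), with the stricter filter (adjusted p = 0.0453) and with hybridization scaling (adjusted p = 0.0187).

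**Figure D2:**
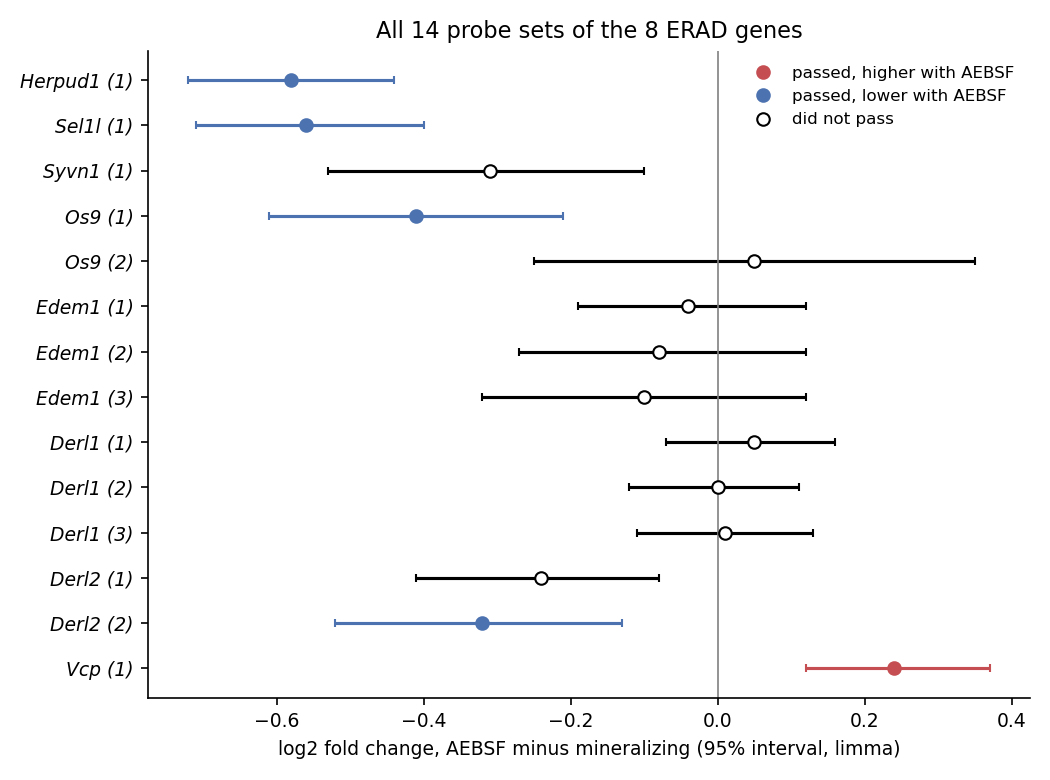
Log2 fold change, AEBSF minus mineralizing, of all 14 probe sets of the 8 genes with 95% intervals from limma (3 cultures per group); numbers in brackets count a gene's probe sets from the brightest down, and filled points passed the threshold. The fall of Os9 rests on 1 of 2 probe sets, both Derl2 points lie below 0, and the 3 points each of Derl1 and Edem1 have intervals that cross 0.

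Vcp, the ATPase that extracts ubiquitinated proteins from the ER membrane and serves many other pathways, was the member that rose. Its signals were 7462, 6855 and 7077 in AEBSF cultures, against 5685, 5985 and 6403 in mineralizing cultures. All AEBSF values lay above all mineralizing values. The log2 fold change was 0.24 (SE 0.06, 95% interval 0.12 to 0.37, limma adjusted p = 0.0191), a 1.18-fold rise against the overall level of each array. The rise did not pass with arrays scaled to hybridization controls (log2 fold change 0.10, limma adjusted p = 0.507), after median centring (0.0584), with a constant variance prior (0.111) or without AEBSF culture 1 or mineralizing culture 1 or 2 (0.0705, 0.078 and 0.0729). Hybridization scaling moved the median of all tested genes to -0.14.

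The region before the Vcp start is shown beside that of Herpud1, since these 2 members moved in opposite directions and each holds 1 of the motifs searched. It lies at chr5:62025388-62025637 on the minus strand of GRCr8, with capitals at TGACGTG, the core of the unfolded protein response element, at bases 223 to 217 before the start. That core was in 1.81% of all promoters and in no other of the 6 members.
Vcp: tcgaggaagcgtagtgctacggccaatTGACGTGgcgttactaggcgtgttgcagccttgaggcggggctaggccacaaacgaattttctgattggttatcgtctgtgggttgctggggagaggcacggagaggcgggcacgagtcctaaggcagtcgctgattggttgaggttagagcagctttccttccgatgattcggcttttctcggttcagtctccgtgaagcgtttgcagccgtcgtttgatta

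Ratios within an array do not depend on a scaling factor common to that array, and 4 were compared. The log2 ratio of Herpud1 to Vcp was -0.67, -0.76 and -0.65 in AEBSF cultures, against 0.16, 0.18 and 0.06 in mineralizing cultures, a difference of -0.82. The ratio of Herpud1 to Hspa5, the main ER chaperone, was -2.06, -2.26 and -2.24 in AEBSF cultures, against -1.59, -1.62 and -1.66 in mineralizing cultures, a difference of -0.56. Herpud1 was therefore lower relative to both genes on every AEBSF array than on any mineralizing array. For Vcp this follows from the separate signals of the 2 genes, which did not overlap and moved in opposite directions. For Hspa5, whose own log2 fold change was -0.02, the ratio mainly repeats the log2 fold change of -0.58 in Herpud1. Neither ratio is thus independent evidence. The ratio of Derl1 to Derl2 averaged 3.51 ± 0.03 in AEBSF and 3.22 ± 0.12 in mineralizing cultures (SD, n = 3 each), a difference of 0.29 with no overlap. The ratio of Sel1l to Syvn1 averaged 0.46 ± 0.11 in AEBSF and 0.70 ± 0.10 in mineralizing cultures, a difference of -0.25 with no overlap. Each gave p = 0.10 in a two-sided exact permutation test over all 20 splits (0.10 adjusted over the 4 ratios), which is the smallest p that 3 against 3 allows.

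**Figure D3:**
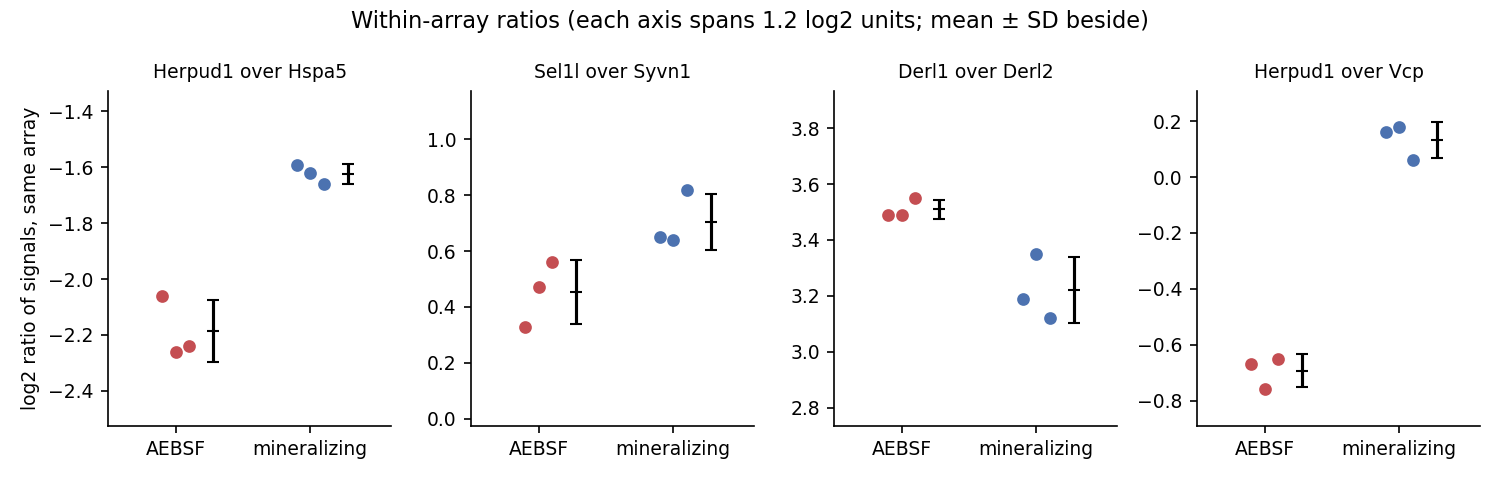
Log2 ratio of the signals of 2 genes on the same array for each of the 3 AEBSF cultures (red, left) and 3 mineralizing cultures (blue, right), with the mean and SD beside; each axis spans 1.2 log2 units and does not start at 0. All 4 ratios show groups that do not overlap, and the ratio of Herpud1 to Vcp differs the most.

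The other genes of the pathway were described by role. In the ER lumen, 5 of 15 tested recognition genes fell and 0 rose, against 9.22% of all genes that fell, and their median log2 fold change was -0.19. Uggt2, a relative of the glucosyltransferase that senses folding, fell to 454 ± 37.6 in AEBSF cultures, against 658 ± 27.2 in mineralizing cultures (log2 fold change -0.54, SE 0.09, limma adjusted p = 0.00322). Calr, the lectin chaperone calreticulin, and Prkcsh, the beta subunit of glucosidase II, fell by 0.32 and 0.27 on the log2 scale. Those 3 act in glucose trimming and refolding and not in disposal as such. Erlec1, a lectin related to Os9, and Dnajc10, a reductase that unlinks clients, each fell by 0.19, and neither call was shared by the gene's other tested probe set. Of 17 alternative settings Uggt2 passed in 17, Calr in 16, Prkcsh in 10, Dnajc10 in 7 and Erlec1 in 6. The count of falls was 9 with arrays scaled to hybridization controls, 3 without AEBSF culture 1, and 2 without AEBSF culture 2 or mineralizing culture 1, 2 or 3.

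Among other proteins of the ER membrane and their partners, 4 of 26 tested genes (15.4%) fell and 0 rose, against 9.22% of all genes that fell, and the median was -0.01, close to that of all genes. Rnf5, a ubiquitin ligase of the ER membrane, fell to 685 ± 41.4 in AEBSF cultures, against 877 ± 51.1 in mineralizing cultures (log2 fold change -0.36, SE 0.08, limma adjusted p = 0.0136). Selenos, a selenoprotein that binds Vcp and the derlins, and Rhbdd1, a rhomboid protease of the ER, fell by 0.26 and 0.24 on that scale. The other tested probe set of Rhbdd1 did not pass, and the Rhbdd1 call was lost with the mean of its probe sets (log2 fold change -0.19, limma adjusted p = 0.078). Ube4a, a cytosolic ligase that lengthens ubiquitin chains and not a membrane protein, fell by 0.43, while none of its 3 other tested probe sets passed. The count was 2 without mineralizing culture 1 or 2, 1 without mineralizing culture 3, and 7 with hybridization scaling.

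On the cytosolic side, 7 of 26 tested Vcp cofactors and handlers of extracted proteins rose, against 7.09% of all genes that rose. Another 2 fell (7.69%), a share near the 9.22% of all genes that fell. The median log2 fold change of the list was 0.14, which turned to -0.01 with hybridization scaling, where 0 rose. Nploc4, which binds ubiquitin for Vcp, rose to 2701 ± 84.6 in AEBSF cultures, against 2120 ± 97 in mineralizing cultures (log2 fold change 0.35, SE 0.06, limma adjusted p = 0.00285). Its other probe set rose too. Ufd1, the partner of Nploc4, rose by a log2 fold change of 0.21 (SE 0.06, limma adjusted p = 0.0351) while its other probe set did not pass; Ufd1 is named here after its values were seen. Ubqln4, a shuttle that carries ubiquitinated proteins to the proteasome, rose by 0.38 and Ubxn2a, a Vcp adaptor, by 0.30. The falls were in Ngly1, the glycanase that strips sugars from extracted proteins (log2 fold change -0.35, SE 0.07), and Ubxn6, another Vcp adaptor (-0.24, SE 0.07). The rise of Ubxn2a passed in 8 and the fall of Ubxn6 in 7 of 17 alternative settings. The count of rises was 2 without AEBSF culture 2 or mineralizing culture 1 or 2, and the count of falls was 1 without any single array other than AEBSF culture 1.

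Of 5 tested ubiquitin-conjugating enzymes that serve ERAD, 2 rose and 0 fell, against 7.09% of all genes that rose. Ube2g2, which works with several ER ligases, rose to 746 ± 56.3 in AEBSF cultures, against 545 ± 67.5 in mineralizing cultures (log2 fold change 0.46, SE 0.10, limma adjusted p = 0.0145), while its other tested probe set did not pass. Ube2k rose by 0.20 on its brightest probe set, and none of its 3 other tested probe sets passed. The list median of 0.10 turned to -0.05 with hybridization scaling, where neither gene passed, and 1 gene passed without AEBSF culture 1 or 2 or mineralizing culture 1 or 2.

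**Figure D4:**
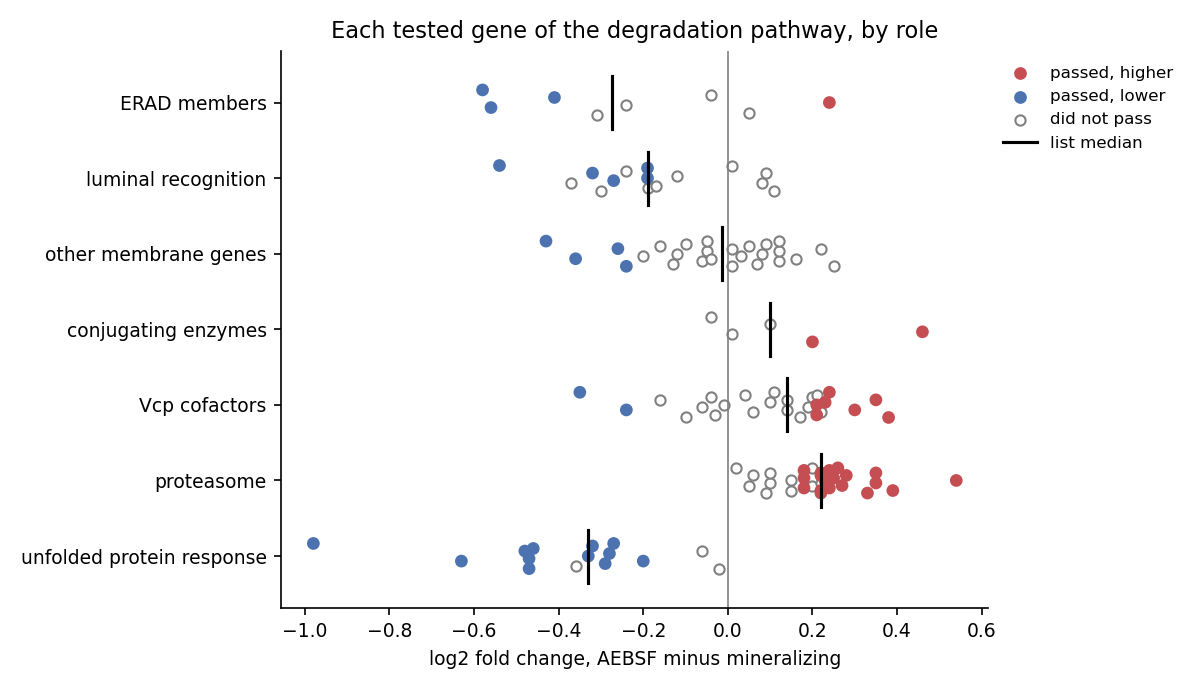
Log2 fold change, AEBSF minus mineralizing, of each tested gene by role (1 point per gene, its brightest probe set; vertical spread has no meaning), with the list median as a black line and filled points for genes that passed. Recognition genes of the lumen passed only to the left of 0 and proteasome genes only to the right, while Vcp cofactors passed on both sides; with hybridization scaling the medians of the conjugating enzymes and Vcp cofactors turned to -0.05 and -0.01.

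Both ends of the pathway can be set beside their neighbours. Of 15 tested genes of the unfolded protein response 12 fell and 0 rose, against 9.22% of all genes that fell, with a median of -0.33. Atf6 and Xbp1 fell by 0.46 and 0.20 on the log2 scale, Eif2ak3 did not pass (log2 fold change -0.36, limma adjusted p = 0.0605), Hspa5 had -0.02, and Ern1 was not analysed here. Of 30 tested proteasome subunits 19 rose and 0 fell, against 7.09% of all genes that rose, led by Psmd1 and Psmd14 (0.54 and 0.39). Their median of 0.22 became 0.07 with hybridization scaling, where 1 rose, and the count was 12, 10 and 8 without AEBSF culture 2, mineralizing culture 1 or mineralizing culture 2. These lists were chosen with earlier results of these data known, so their directions are not independent evidence.

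**Figure D5:**
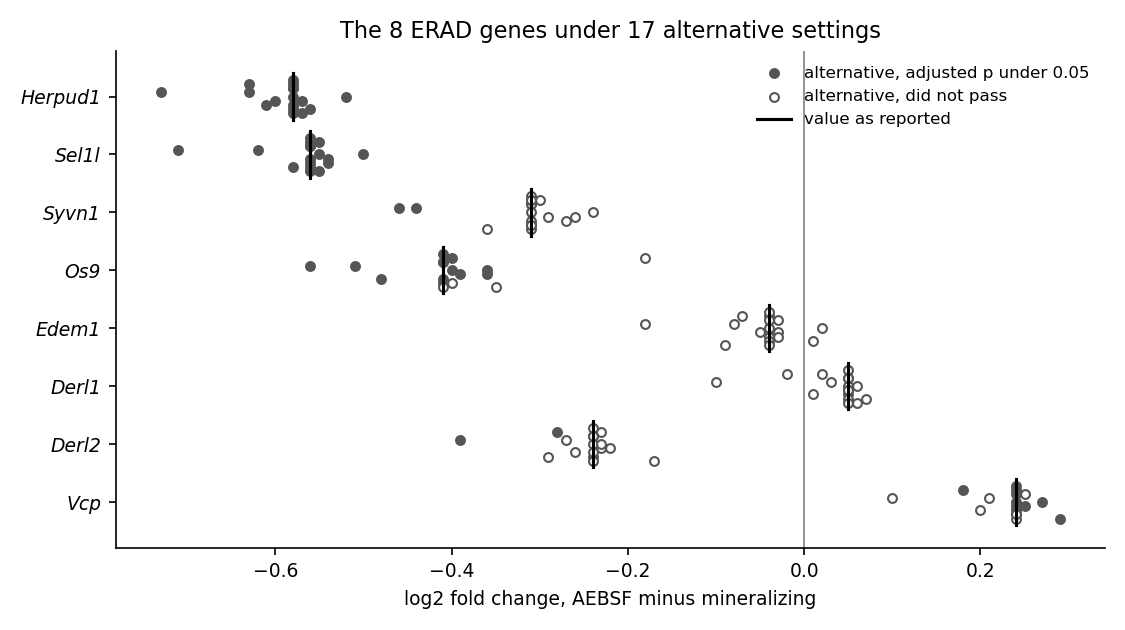
Log2 fold change, AEBSF minus mineralizing, of the 8 genes under 17 alternative settings (1 point per setting, filled where the limma adjusted p is under 0.05; vertical spread has no meaning) with the reported value as a black line. Herpud1 and Sel1l are filled throughout, Os9 in 13 and Vcp in 11 settings, Syvn1 in 4 and Derl2 in 3, and Edem1 and Derl1 in none, with points on both sides of 0.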

How the data were processed

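RNA of 6 cultures was hybridised to 1 array each. The deposited values are signal intensities on a linear scale; the submitters' processing notes name MAS5 and GCOS, without versions, and the file holds no detection calls. Trimmed by 2% at each end, the array means were 500.15 to 500.16. Probe sets were named from the platform annotation where it gave 1 symbol (20826 of 31042), updated to RefSeq GRCr8 symbols for 20758. Log2 signals were fitted in limma 3.58.1 (R 4.3.3) with a variance prior following the mean, for the 18625 probe sets above the 40th percentile of mean log2 signal (a signal of 67.2). Each gene was read from the probe set whose mean log2 signal was highest. Choosing by mean linear signal, which was tried first and is kept as an alternative chosen after seeing the data, gave 1612 called genes in place of 1608 and the same probe set for every listed gene. Arrays limit the precision by their number. The fit was checked on simulated data with known changes.

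Members and lists, from textbook knowledge, were chosen with earlier results of these data known. Named were all members, up to 5 called genes per ERAD list by size of change, and for comparison Hspa5, Atf6, Xbp1, Ern1, Eif2ak3 and the 2 proteasome genes with the largest called changes. Same-numbered cultures did not deviate together, so no pairing was used. Alternatives were 3 other array scalings, 2 added constants, 2 filters, 2 variance priors, averaging all probe sets of a gene, a replicate block and leaving out each array. Within-array ratios were tested by exact permutation.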

Additional observations from a re-analysis of the deposited data

How the results depend on the processing

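Of the 4 called members, Herpud1 and Sel1l passed in all 17 alternatives, Os9 in 13 and Vcp in 11, and none changed sign. The cause of lost calls was not tested. Leaving out 1 array, which left fewer samples in each such run, gave 2 to 4 called members, with 2 without mineralizing culture 2. An equal count need not mean the same genes: without AEBSF culture 1 it was 4, with Syvn1 called and Vcp not. The runs without 1 array gave 8 to 18 other ERAD genes, with 2 to 4 recognition genes and 1 to 4 membrane genes lower. They gave 2 to 7 Vcp cofactors higher and 1 to 2 lower, and 1 to 2 conjugating enzymes higher. Unfolded protein response genes lower numbered 9 to 12, and proteasome genes higher 8 to 17. Called probe sets numbered 1203 to 2257 in these runs, against 2495 with all 6 arrays. A constant variance prior left 2 members, 5 of the 20 other ERAD genes (1 recognition and 1 membrane gene lower, 2 Vcp cofactors higher and 1 lower, 0 conjugating enzymes), 4 unfolded protein response genes, 3 proteasome genes and 885 probe sets. Median centring gave 12 other ERAD genes (3 recognition genes, 4 Vcp cofactors higher and 1 lower, 1 conjugating enzyme) and no signal filter gave 11 (2, 3, 1 and 1 in that order). With quantile normalization 1 Vcp cofactor was lower and 1 conjugating enzyme higher, and with the mean of probe sets 1 conjugating enzyme was higher. Scaling to 18 hybridization control probe sets gave 9 recognition and 7 membrane genes lower, 0 Vcp cofactors and 0 conjugating enzymes higher, 1 proteasome gene higher, and 119 probe sets higher and 2457 lower in place of 1115 and 1380.

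Titles number the cultures 1 to 3 in both groups, but deviations of same-numbered cultures correlated at 0.011, -0.119 and -0.036, and 0 of 6 arrays matched their own number best. The replicate block gave 12 other ERAD genes (3 recognition genes lower, 3 Vcp cofactors higher and 1 lower, 1 conjugating enzyme higher), and Syvn1 passed (adjusted p = 0.0413). The ratios kept their direction in all 9 alternatives each. With 3 arrays per group and no detection calls, differences of about the size of the intervals given, such as 0.95- to 1.12-fold for Derl1, could not be resolved.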

Other observations

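The tested genes whose log2 signal over the 6 arrays followed Herpud1 most closely were Ifi27l2b, Fyn, Aga, Cdh11 and Ggct, with Pearson correlations of 0.997 to 0.998. Those closest to Sel1l were Dnajc3, Hbp1, Pgls, F3 and Sec11c, with correlations of 0.995 to 0.997. All 10 were lower on every AEBSF array than on any mineralizing array, so the correlations describe mainly the group difference they share with these genes. Cdh11, the osteoblast cadherin, had 1924 ± 139 in AEBSF cultures and 2763 ± 91.3 in mineralizing cultures (SD, n = 3 each; limma adjusted p = 0.000562). Dnajc3, an ER co-chaperone that is on the unfolded protein response list, had 1206 ± 103 in AEBSF cultures and 1672 ± 62.8 in mineralizing cultures (limma adjusted p = 0.00179).

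The ER stress response element stood in 5 of the 12 promoter entries that RefSeq's table holds for the unfolded protein response list (Creld2, Dnajc3, Hsp90b1, Hspa5 and Xbp1) and in entries of Calr, Canx and Derl3 among the other ERAD lists, beside 0.0657% of all promoters. It was in 0 of 27 entries of Vcp cofactors and 0 of 27 of proteasome subunits. At a share of 0.0657%, most sets of 27 promoters would hold none, so these zeros tell nothing particular to the 2 lists. The element is one of ER stress genes, which the unfolded protein response list was chosen to hold, so the contrast is not independent evidence. Of the genes with a match, Creld2, Dnajc3, Hsp90b1, Xbp1 and Calr were lower with AEBSF. Hspa5 and the brightest probe set of Canx did not pass (log2 fold changes -0.02 and -0.12), and Derl3 was not analysed here. Of the 2 other tested probe sets of Canx, 1 passed and was lower with AEBSF. The genes with a match were looked at after their values were known.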
